A study of Gossypium hirsutum with 24 samples.

Results

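Bolls of cotton plants under drought were compared with bolls of watered plants on the day the flower opened, 0 days post anthesis (dpa). The comparison takes 6 of the 24 arrays of the study, 3 labelled drought and 3 labelled control at this stage, and it covers all 520 genes that the annotation ties to a probe set of their own. The cultivar was Bikaneri Nerma of Gossypium hirsutum, upland cotton, grown in 12 field plots, 6 per condition. The drought plots got no irrigation from peak flowering on, and a shelter was drawn over them in rain. Collection began when soil moisture in those plots stood at 19.5%, or 50% of the moisture of the control plots, which took 18 to 19 days. The control plants were of the same cultivar in adjacent watered plots. The labels call the 3 arrays of a group biological replicates but do not say whether each came from its own plot, so p-values measure the spread between these samples. All drought plots were under the shelter, so lack of water and shelter cannot be told apart. The note on collection at 0 dpa names leaf beside bolls, whereas the note on extraction names bolls. The 3 later stages, 5, 10 and 20 dpa, each have 3 drought and 3 control arrays of their own.

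A boll at anthesis is the ovary of the open flower, and its ovules carry the epidermal cells that begin to grow out as fibre on that day. Plants short of water close their stomata, accumulate abscisic acid, make protective proteins such as late embryogenesis abundant (LEA) proteins, and slow growth by changing cell wall enzymes, hormone synthesis and carbon use. Class III peroxidases of the cell wall can stiffen walls, sucrose synthases feed sugar into sink tissue, and DREB, NAC and WRKY factors are families with members that answer water stress.

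Transcripts were measured on the Affymetrix cotton GeneChip, a 1-colour array on which a probe set reads a transcript. The values were log2 signals made by RMA, and for each probe set they were centred on the median of the 6 arrays of the stage. A value of 1 therefore means 2-fold above that median. The values carry differences between drought and control, but no level of a transcript, so levels of different genes and the presence of a tissue could not be compared. Replicate arrays differed with an SD of 0.156 to 0.181, and the standard error (SE) of a drought minus control difference had a median of 0.0952. Differences below are drought minus control on the log2 scale, with their SE and n = 3 arrays per group. The SE and p-values take their spread from all 24 arrays, fitted as 8 groups, and not from the 6 arrays at 0 dpa alone. They need not match the spread of the 3 arrays of a group. A gene was called when its p-value from limma, adjusted by Benjamini-Hochberg over all 23973 probe sets tested, was below 0.05, and it is said to have risen or fallen only then. In bulk tissue, fewer cells of a type and less RNA per cell cannot be told apart. Whether bolls of both groups held the same tissues was not tested, because of the genes listed as tissue markers only a few had a name here. G9, listed for pollen and anther, rose, and so did RCA1, listed for leaf, at 0.37 ± 0.13. The 3 seed storage genes LegA, LegB and vicB lay between −0.03 and 0.09 and none was called. Of 7 genes listed for fibre and ovule epidermis 1 expansin gene rose and none fell on the chosen probe sets, with E6 at −0.15 and HOX3 at 0.21. Other probe sets of 3 of these genes were called, that of EXPA3D at 0.54, that of EXPA13D at −0.52 and that of FSLTP2 at −0.65.

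The control transcripts separated the drought arrays from the control arrays. Bacterial poly-A transcripts (dap, lys, phe, thr), which are spiked into the RNA before labelling, are read by probe sets near their 5′ and their 3′ end. Their 5′ minus 3′ signal was −0.27, −0.22 and −0.35 in the control arrays and 0.17, 0.17 and 0.23 in the drought arrays. The groups did not overlap, for the mean of the 4 spikes or for any of them, and the difference between groups was 0.47. For the 3 cotton control transcripts, actin, ubq11 and ss1, it was 0.66, again without overlap. The hybridisation spikes, which are added after labelling, showed 0.01 with overlapping groups. The 3′ probe sets of the poly-A spikes differed by −0.03 with overlap and their 5′ probe sets by 0.44. The part of this 5′ to 3′ shift in the results was not tested directly. A limma fit with the 5′ minus 3′ signal of the cotton control transcripts as a covariate, called the 5′/3′ covariate below, is given beside the genes, and one with that of the poly-A spikes as a count. A scaling of the arrays on all probe sets of the poly-A spikes lowered every difference by 0.22.

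**Figure D1:**
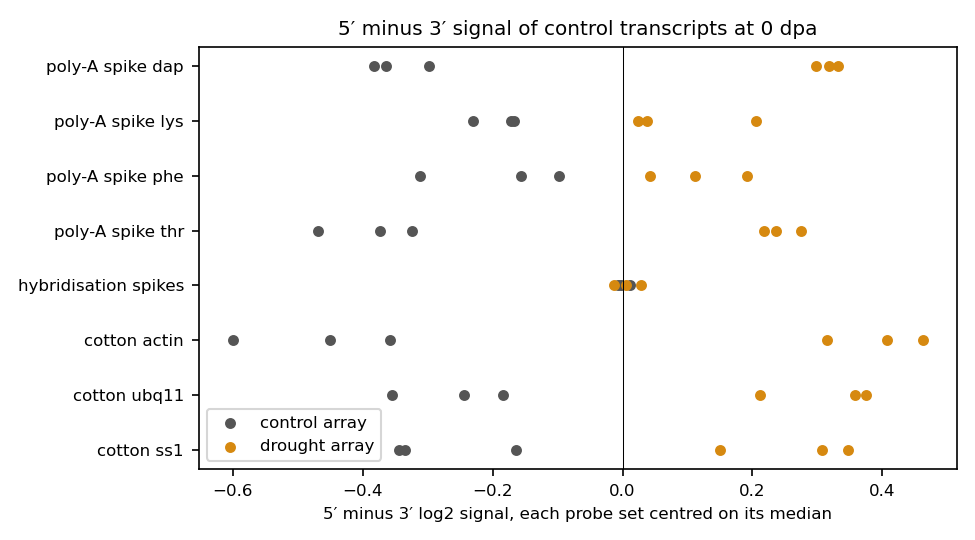
5′ minus 3′ log2 signal of the spiked and cotton control transcripts in each of the 6 arrays at 0 dpa (horizontal axis), with each probe set centred on its median over these arrays; grey points are control arrays and orange points drought arrays. Control and drought arrays lie apart for dap, lys, phe, thr, actin, ubq11 and ss1 and overlap for the hybridisation spikes.

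Across the array 10606 of the 23973 probe sets passed the test, 44.2%, with 5123 higher (21.4%) and 5483 lower (22.9%) in drought. Most of these differences were small, and only 877 probe sets, 3.66%, were called and at least 2-fold apart, 570 higher and 307 lower. Of the 520 annotated genes 294 were called, 111 higher and 183 lower, with a median difference of −0.07 beside 0.01 over all probe sets. Among the 243 genes with an informative name, 52 rose, 85 fell and 106 were not called. The counts of the classes below are to be read beside these. Drought and control arrays did not overlap for 385 of the 520 genes, beside 56.6% of all probe sets. The split into higher and lower depended on the scaling. On all probe sets of the poly-A spikes 35 genes rose and 170 fell, and on all bacterial spikes together 51 rose and 171 fell. On the 3′ probe sets of the poly-A spikes 107 rose and 146 fell, and on the hybridisation spikes 50 rose and 73 fell. With the 5′/3′ covariate 131 genes were called, 52 higher and 79 lower, the median SE over probe sets was 0.165, and the median size of a difference was 0.20 beside 0.19 without it. Of the 137 named genes called, 53 kept their call with the covariate and 84 lost it, which is said where a gene is described below. With the 5′ minus 3′ signal of the poly-A spikes as the covariate, 274 of the 520 genes were called, 108 higher and 166 lower, the median SE was 0.0976, and 121 of the 137 genes kept their call. On the poly-A scaling 94 of the 137 kept it, 19 of the 52 that rose and 75 of the 85 that fell. The 19 rises were those of ACS3/ACS6, ACX, AOX1, ASP3, BC1, DBP3b, Di19-1, FLA4, G9, GEPH, GRPL1, Ghfe1, KCH1, Lea14-A, MFP, PAP1, RAV1, SusA1 and WRKY24/WRKY71, so every other named gene that rose lost its call on that scaling. The 10 falls that lost it were those of ACT7/ACT8/ACT9, CRK1, CTL1, GAI2, ManA2, RHM3, SAMDC, Sus1, bHLH110D and cys1. In all, 41 genes kept their call both with the 5′/3′ covariate and on the poly-A scaling. Leaving out 1 array at a time took the call from 29 of the 137 genes at least once. Of the 106 named genes not called, 14 had another probe set that was called, and of the 24 named genes whose array values are given below, 5 had another probe set, with a call for 2 of them. These 24 were picked from called genes without overlap, so their lack of overlap, stated below, follows from the choice. Of further called genes, the other probe sets of ACX, CBF17, CLP, EF1A7/EF1A8, MAPKKK, SERK1 and XTH1 were not called.

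**Figure D2:**
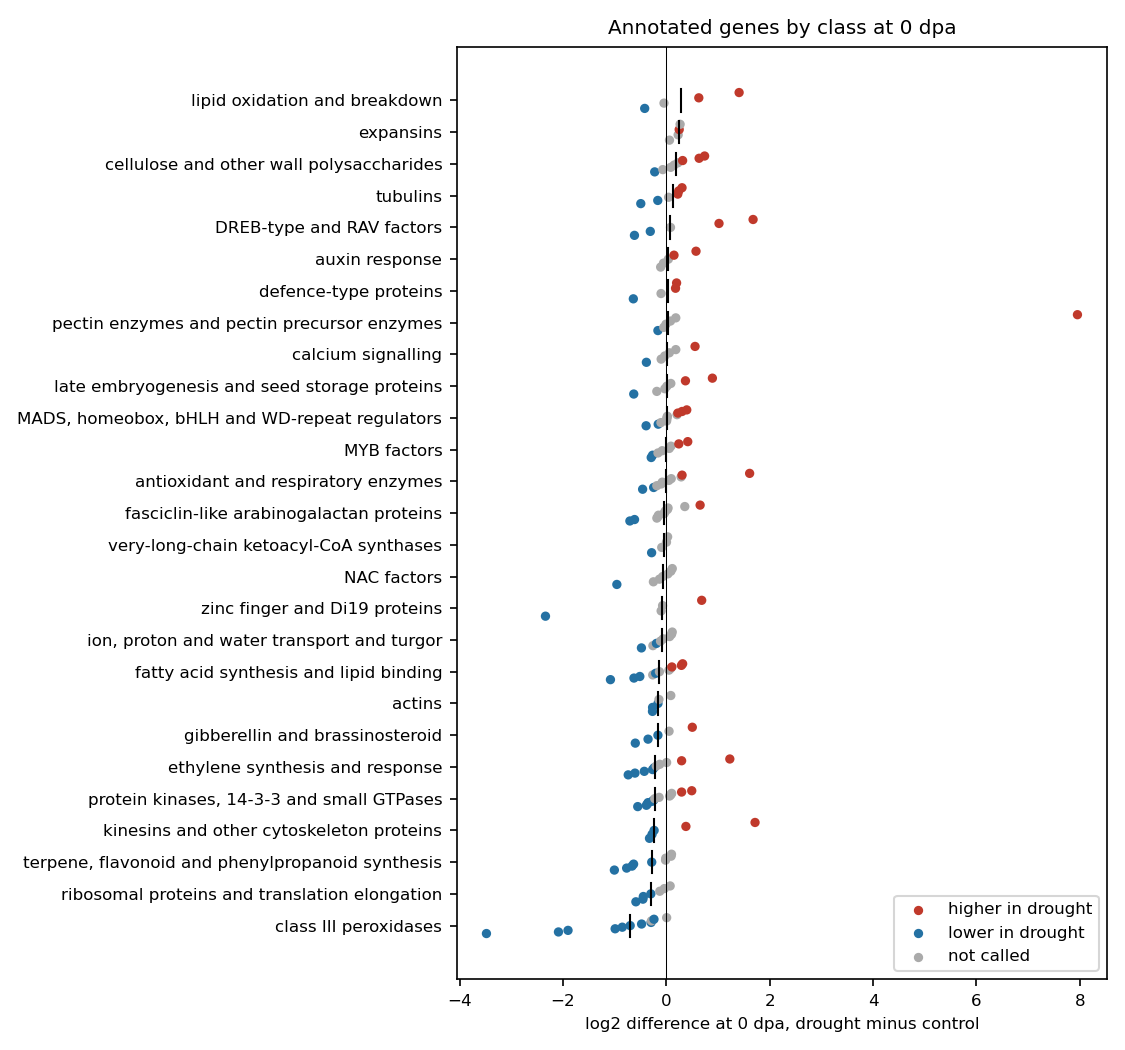
Log2 difference between drought and control at 0 dpa (horizontal axis) for each named gene in the classes with at least 4 genes; red points are genes called higher, blue points genes called lower, grey points genes not called, and the black bar is the median of the class. G9 stands at 7.95 among the pectin genes, and 9 of 11 peroxidases lie among the genes called lower, beside 183 of all 520 genes.

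Pectin and other wall genes held the largest rise among the named genes. G9 (LOC107942091) codes for a polygalacturonase, an enzyme that cuts pectin, and is known in cotton as a gene of pollen. Its control arrays stood at −3.95, −4.07 and −3.90 and its drought arrays at 3.90, 4.0 and 4.05, so all drought arrays lay far above all control arrays. The difference was 7.95 ± 0.08, 248-fold, with an adjusted p of 8.85e-24 in limma. It stood at 8.27 with the 5′/3′ covariate and 7.74 on the poly-A scaling. The probe set ends in _x_at, a mark of probes that can bind related transcripts. The other 5 genes of pectin and its precursors stood between −0.16 and 0.18. RHM3, a rhamnose synthase gene, fell to −0.16 ± 0.05, and the glucuronate epimerase genes GAE2 (0.18) and GAE3 (0.08), the pectate lyase gene Pel (−0.01) and PGIPL (−0.05), which resembles inhibitors of polygalacturonase, were not called. The RHM3 call was lost with the 5′/3′ covariate.

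Among 8 genes of cellulose and other wall polysaccharides 3 rose, 1 fell and 4 were not called, with a median of 0.19. BC1 rose by 0.74 ± 0.17, GRPL1, whose product is a reversibly glycosylated polypeptide, by 0.63 ± 0.14, and UGD2, a UDP-glucose dehydrogenase gene that supplies pectin and hemicellulose precursors, by 0.31 ± 0.07. The chitinase-like gene CTL1 fell, to −0.23 ± 0.08. The cellulose synthase gene CesA1 (0.15) and its relative CslD1 (0.22) were not called. With the 5′/3′ covariate UGD2 kept its call, which it lost on the poly-A scaling at 0.09, BC1 turned to −0.22 and GRPL1 to −0.08 without passing the test, and CTL1 lost its call. The 4 probe sets of GRPL1 ran from −0.62 to 0.63 and were called in both directions.

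Expansins, which loosen walls, lay between 0.06 and 0.27, and 1 of 4 rose. That gene, EXPA13D/EXPA4 (LOC107891056), stood at 0.25 ± 0.10 with an adjusted p of 0.0454 in limma, lost its call with the 5′/3′ covariate, and had another probe set called at −0.52. Of 3 xyloglucan endotransglucosylase genes, whose products cut and rejoin hemicellulose chains, XTH1 (LOC107911611) rose by 0.28, XTH3 fell by 0.42, and LOC107886823 was not called at −0.16 but had another probe set called at −1.0. Both calls were lost with the covariate, and XTH1 turned to −0.28.

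Fasciclin-like arabinogalactan proteins sit at the plasma membrane and in the wall. Of their 12 genes FLA4 rose by 0.65 ± 0.06, FLA19 fell to −0.71 ± 0.11 and FLA14 to −0.62 ± 0.09, and 9 were not called. All 3 calls stood with the 5′/3′ covariate. The genes not called lay between −0.18 (FLA16) and 0.36 (FLA18). FLA14 had probe sets called at −0.62 and at 0.62, so its direction belongs to the probe set chosen.

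The sucrose synthase gene SusA1 (LOC107910106) rose in drought while the other 2 named sucrose synthase genes fell. SusA1 stood at −0.91, −0.89 and −1.30 in the control arrays and 0.89, 0.91 and 0.90 in the drought arrays. The drought arrays were nearly equal and all above the control arrays, of which the third lay lowest. The difference was 1.94 ± 0.38, 3.83-fold, with an adjusted p of 0.000332 in limma. With the 5′/3′ covariate it was −0.18 and not called, and its other probe set, of antisense design, was called at 0.47. Sus1 fell to −0.11 ± 0.04 and susC to −0.31 ± 0.05, and only susC kept its call with the covariate.

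Of 11 genes of fatty acid synthesis and lipid binding 3 rose, 4 fell and 4 were not called. SCP (LOC107904219), placed here by its symbol alone, fell most. Its control arrays stood at 0.47, 0.36 and 0.88 and its drought arrays at −0.36, −0.43 and −0.75, which did not overlap but spread widely. The difference was −1.08 ± 0.23, with an adjusted p of 0.000849 in limma. The cyclopropane fatty acid synthase genes CPA-FAS-1 (−0.63) and CPA-FAS-2 (−0.51) fell together, and CPA-FAS-3 stood at −0.26 without passing the test. The acyl-CoA binding gene ACBP also fell, to −0.21. The rises were those of the desaturase gene FAD78-1A (0.31), the thioesterase gene FatB1 (0.29) and the ketoacyl synthase gene KASII (0.11). With the 5′/3′ covariate only FAD78-1A kept its call, which it lost on the poly-A scaling at 0.10. KASII turned to −0.11 on the poly-A scaling, and FatB1 had another probe set called at −0.49.

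Genes of lipid breakdown included 2 rises. MFP (LOC107932835), for the multifunctional enzyme of peroxisomal beta-oxidation, stood at −0.64, −0.76 and −0.70 in the control arrays and 0.71, 0.77 and 0.64 in the drought arrays. All drought arrays were above all control arrays, and it rose by 1.41 ± 0.17 with an adjusted p of 1.51e-06 in limma. ACX, the acyl-CoA oxidase gene of the same pathway, rose by 0.63 ± 0.16. Both calls were lost with the 5′/3′ covariate, where MFP stood at 0.62 and ACX at −0.11. The lipoxygenase gene Lox1 fell to −0.42 ± 0.05 and kept its call, and the phospholipase gene pldd stood at −0.05 without passing the test. Of the 3 sterol methyltransferase genes, SMT2-2 (0.37) and SMT1 (0.16) rose. SMT2-2 turned to −0.38 with the covariate, and SMT1 lost its call with it and turned to −0.06 on the poly-A scaling. Of 4 ketoacyl-CoA synthase genes of very long fatty acids only KCS38 was called, at −0.29, a call lost with the covariate, and its 4 probe sets ran from −0.29 to 0.82, with 2 called higher.

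Class III peroxidases, secreted enzymes that oxidise phenolic compounds in the wall, fell in most cases. Of their 11 genes none rose, 9 fell and 2 were not called, and the median difference was −0.70. Over all 520 genes 111 rose and 183 fell, with a median of −0.07. The genes pod7, pod10 and POX5 fell by more than 2-fold. In pod7 (LOC107936187) the control arrays stood at 1.62, 1.67 and 1.57 and the drought arrays at −2.06, −1.96 and −1.57. The drought arrays were all below the control arrays, the third of them least so, and the difference of −3.48 ± 0.08 made pod7 11.2-fold lower. In pod10 (LOC107914313), read by a probe set of antisense design, the control arrays stood at 0.97, 0.97 and 1.14 and the drought arrays at −0.97, −1.07 and −1.14. In POX5 (LOC107914564) they stood at 0.99, 1.09 and 0.87 and at −0.87, −0.92 and −0.97. Both genes showed tight groups far apart, with differences of −2.09 ± 0.10 and −1.90 ± 0.08. The other probe set of POX5, of antisense design, stood at −0.01 and was not called.

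The groups of the next genes lay closer to each other. In POX10 (LOC107937645) the control arrays stood at 0.45, 0.55 and 0.47 and the drought arrays at −0.52, −0.45 and −0.54. In the gene named pox (LOC107951876) they stood at 0.23, 0.20 and 0.36 and at −0.20, −0.94 and −0.63, with the drought arrays far apart among themselves but all below the controls. The differences were −0.99 ± 0.11 and −0.85 ± 0.11, and the highest adjusted p in limma of these 5 peroxidase genes was 4.5e-06. That of pox was 0.00684 in a limma fit on the 6 arrays at 0 dpa alone. All 5 kept their call with the 5′/3′ covariate. Of the rest, POX9 (−0.70), pod6 (−0.48), pod5 (−0.30) and the gene named peroxidase (LOC107905931, −0.24) fell as well, each losing its call with the covariate. The gene pod3 (−0.29) and pod1 (0.01) did not pass the test.

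**Figure D3:**
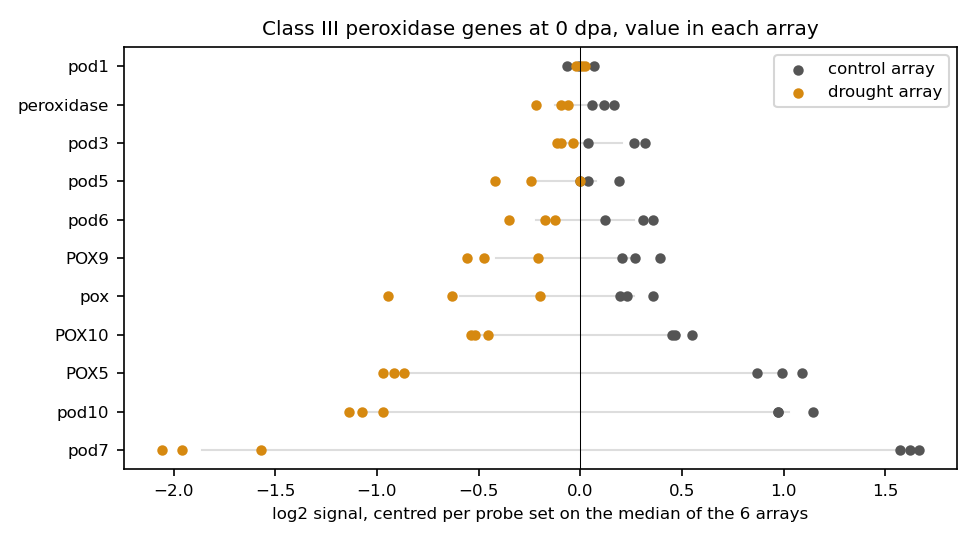
Centred log2 signal (horizontal axis) of the 11 class III peroxidase genes in the 3 control arrays (grey) and 3 drought arrays (orange) at 0 dpa, with a line between the group means. For 10 of the genes all drought arrays lie below all control arrays, and for pod1 the groups overlap. Of all 520 genes 385 had groups without overlap, in either direction.

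Antioxidant and respiratory enzymes split: 2 of 10 rose, 2 fell and 6 were not called. AOX1 (LOC107939301), for the mitochondrial alternative oxidase that passes electrons around the cytochrome path, stood out. Its control arrays stood at −0.72, −0.83 and −0.99 and its drought arrays at 0.80, 0.76 and 0.72, without overlap. The rise of 1.61 ± 0.11, 3.06-fold, had an adjusted p of 1.83e-10 in limma and was 1.80 with the 5′/3′ covariate, but the probe set is of antisense design. The stromal ascorbate peroxidase gene sAPX rose by 0.30 and turned to −0.14 with the covariate. The ascorbate peroxidase gene gAPX fell to −0.25 and kept its call, whereas the glutathione transferase gene LOC107889738 fell to −0.46 and lost it. Superoxide dismutase genes stood at 0.29 (FeSOD), 0.09 (CSD2) and −0.08 (MnSOD), the catalase gene CAT2 at −0.10 and the dehydroascorbate reductase gene DHAR1 at −0.19, none of them called, although another probe set of MnSOD was called at 0.21.

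Acid phosphatases, which free phosphate from organic compounds, went both ways. In PAP1 (LOC107905479) the control arrays stood at −0.40, −0.38 and −0.40 and the drought arrays at 0.38, 0.43 and 0.46. In PAP10 (LOC107908811) they stood at 0.38, 0.52 and 0.52 and at −0.47, −0.38 and −0.43. Neither gene had overlapping groups, PAP1 with a rise of 0.81 ± 0.16 (adjusted p 0.00032 in limma) and PAP10 with a fall to −0.90 ± 0.07 (adjusted p 3.37e-09). PAP10 kept its call with the 5′/3′ covariate, and PAP1 lost it at 0.02. The other probe set of PAP1, of antisense design, stood at 0.03 and was not called. The apyrase gene APY1, which splits extracellular ATP, rose by 0.24 and lost its call as well.

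Genes of terpene, flavonoid and phenylpropanoid synthesis fell or were not called, 5 and 4 of 9, beside 183 falls and 111 rises among all 520 genes. The fall was largest for cdn1 (LOC107903500), whose cadinene synthase makes the precursor of gossypol, a defence compound of cotton. Its control arrays stood at 0.36, 0.47 and 0.56 and its drought arrays at −0.36, −0.51 and −0.76, which did not overlap. The difference was −1.01 ± 0.15 with an adjusted p of 2.23e-05 in limma, and −0.51 without a call with the 5′/3′ covariate. The chalcone synthase gene CHS6 (LOC107934821), of the entry step to flavonoids, had control arrays at 0.39, 0.31 and 0.24 and drought arrays at −0.24, −0.57 and −0.55. Its difference was −0.77 ± 0.13 with an adjusted p of 8.2e-05, the groups did not overlap, and it kept its call. CHS3 (−0.63), CCoAMOT2 of lignin synthesis (−0.66) and the dihydroflavonol reductase gene DFR (−0.28) fell and kept their calls too. CHS2 (−0.02), the cinnamoyl-CoA reductase gene CCR1 (0.10) and the P450 reductase genes CPR1 (−0.01) and CPR2 (0.09) were not called.

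Ethylene is made by ACC synthases (ACS) and ACC oxidases (ACO), and ERF factors act in the response. Of 10 such genes 2 rose, 5 fell and 3 were not called, with a median of −0.22. ACS3/ACS6 (LOC107947061) had control arrays at −0.59, −0.59 and −0.63 and drought arrays at 0.67, 0.59 and 0.62, both groups tight. It rose by 1.23 ± 0.06, with an adjusted p of 1.79e-12 in limma and 1.12 with the 5′/3′ covariate. ACS1 (−0.27) and the oxidase genes ACO3 (−0.61) and ACO1 (LOC107905899, −0.24) fell, so ACS3/ACS6 was the only synthase or oxidase gene that rose. The gene named ACS (LOC107923295) was not called at −0.20, although 2 of its 4 probe sets were called lower.

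ERF7 (LOC107941184) stood at 0.31, 0.51 and 0.27 in the control arrays and −0.27, −0.34 and −0.51 in the drought arrays. The groups did not overlap, and it fell to −0.74 ± 0.12 with an adjusted p of 3.64e-05 in limma. ERF8 also fell, to −0.43, ERF9 rose by 0.30, with its other probe set at 0.56, and ERF3 was not called at 0.00. With the 5′/3′ covariate ACO3 and ACS3/ACS6 kept their calls, and ACS1, ACO1, ERF7, ERF8 and ERF9 lost them.

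Of 5 auxin response genes Aux2 rose by 0.57 ± 0.06 and ARF1, of an auxin response factor, by 0.15 ± 0.05, and both kept their calls with the 5′/3′ covariate. ARF1 turned to −0.07 on the poly-A scaling, and Aux2 lost its call there at 0.35. Among 5 gibberellin and brassinosteroid genes SERK1, of a receptor-like kinase, rose by 0.50 ± 0.10. The gibberellin receptor gene GID1-4 fell to −0.60 ± 0.10, the brassinosteroid synthesis gene DET2 to −0.35 ± 0.07 and GAI2, of a DELLA repressor of gibberellin response, to −0.16 ± 0.06. The receptor gene GID1-2 was not called at 0.05 ± 0.25, with overlapping groups. All 4 calls were lost with the covariate, and GAI2 turned to 0.03.

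Of 6 calcium signalling genes CBL3, of a calcineurin B-like calcium sensor, rose by 0.55 ± 0.07, and CNGC2, of a cyclic nucleotide-gated channel, fell to −0.39 ± 0.07. CBL1 (0.18), CBL2 (−0.03) and both annexin genes (−0.10 and 0.06) were not called. CBL3 kept its call with the 5′/3′ covariate and lost it on the poly-A scaling at 0.34, and CNGC2 lost it with the covariate. Among 13 genes of protein kinases, 14-3-3 proteins and small GTPases 2 rose, 6 fell and 5 were not called, with a median of −0.23. PK1 (0.49) and MPK14 (0.29) rose. MAPKKK (−0.35), SOS2 (−0.28), the receptor-like kinase gene grlk5 (−0.24), the GTPase genes Rac2 (−0.37) and Rab7 (−0.39), and the MAP kinase gene MPK3 (LOC107959059, −0.55) fell. SOS2 is a kinase that activates sodium export in Arabidopsis. MPK14, SOS2 and Rac2 kept their calls with the covariate and the other 5 lost them, and MPK14 stood at 0.08 without a call on the poly-A scaling. The 6 probe sets of MPK3 ran from −0.72 to 0.98, 3 called higher and 2 lower, so its fall holds for the chosen probe set and not for the gene.

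DREB-type and RAV factors, which carry AP2 DNA-binding domains, rose and fell in equal number, 2 and 2 of 5. DBP3b (LOC107890730), of the DREB family, stood at −0.83, −0.81 and −0.93 in the control arrays and 0.81, 0.84 and 0.82 in the drought arrays. RAV1 (LOC107946446) stood at −0.54, −0.42 and −0.49 and at 0.42, 0.59 and 0.59. Neither overlapped. DBP3b rose by 1.68 ± 0.08 with an adjusted p of 2.27e-12 in limma, and RAV1 by 1.02 ± 0.25 with 0.00283. With the 5′/3′ covariate DBP3b was at 1.98 and RAV1 turned to −0.20, not called. The other 2 probe sets of RAV1 stood at 0.08 and 0.09 and were not called. CBF17 fell to −0.62 ± 0.10 and kept its call, DBP2/CBF15 fell to −0.31 and lost it, and CBF20/DREB1C was not called at 0.08. The other probe set of CBF17 stood at −0.03 and was not called.

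Both named WRKY genes were called, in opposite directions. WRKY24/WRKY71 (LOC107906829) stood at −0.62, −0.61 and −0.70 in the control arrays and 0.61, 0.68 and 0.72 in the drought arrays, without overlap. It rose by 1.31 ± 0.08 with an adjusted p of 8.99e-11 in limma and 1.52 with the 5′/3′ covariate. WRKY15 fell to −0.36 ± 0.14 with an adjusted p of 0.0493, and that call was lost with the covariate. Its other probe set, of antisense design, was called at −1.08. Of 7 genes for NAC factors 1 fell and 6 were not called. The exception, NAC7 (LOC107909534), had control arrays at 0.49, 0.44 and 0.48 and drought arrays at −0.55, −0.49 and −0.44. Its groups lay far apart, at −0.96 ± 0.07 with an adjusted p of 1.07e-09, and −0.88 with the covariate, and its other probe set was called at −0.32. NAC2 (0.03), NAC4 (−0.25), NAC5/NAC8 (−0.13), NAC6 (−0.07), NAC10 (0.11) and the NST-type gene nst3 (0.09) did not pass the test, although another probe set of NAC4, of antisense design, was called at −0.54.

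The zinc finger gene ZFP1 (LOC107933034) showed the largest fall outside the peroxidases among the named genes. Its control arrays stood at 1.19, 1.14 and 1.13 and its drought arrays at −1.19, −1.23 and −1.13, with a difference of −2.34 ± 0.09, 5.06-fold lower, an adjusted p of 1.49e-14 in limma and −2.26 with the 5′/3′ covariate. Di19-1, of a family named for drought-induced genes of Arabidopsis, rose by 0.68 ± 0.10 and kept its call, while Di19-2 (−0.07) and GZFP (−0.10) were not called. Of 8 MYB genes 2 rose, 2 fell and 4 were not called. MYB5 (LOC107912305) rose by 0.41 and GHMYB10 by 0.24, and MYB5/MYB6 (LOC107912705) fell to −0.27 and myb109, a MYB of young fibres, to −0.29. Only MYB5/MYB6 kept its call with the covariate.

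Of 11 MADS, homeobox, bHLH and WD-repeat regulators 3 rose, 2 fell and 6 were not called, and none was past 0.39 in either direction. The WD-repeat gene WD1521 (0.39), MADS-2 (0.30) and the floral organ gene SEPALLATA3 (0.22) rose. MADS-1 (−0.39) and the bHLH gene bHLH110D (−0.16) fell. WD1521 and MADS-1 kept their calls with the 5′/3′ covariate, WD1521 stood at 0.17 without a call on the poly-A scaling, MADS-2 lost its call with the covariate, and SEPALLATA3 turned to −0.21 and bHLH110D to 0.03. GHTTG1, of a WD-repeat regulator of epidermal hairs, was not called at 0.00.

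**Figure D4:**
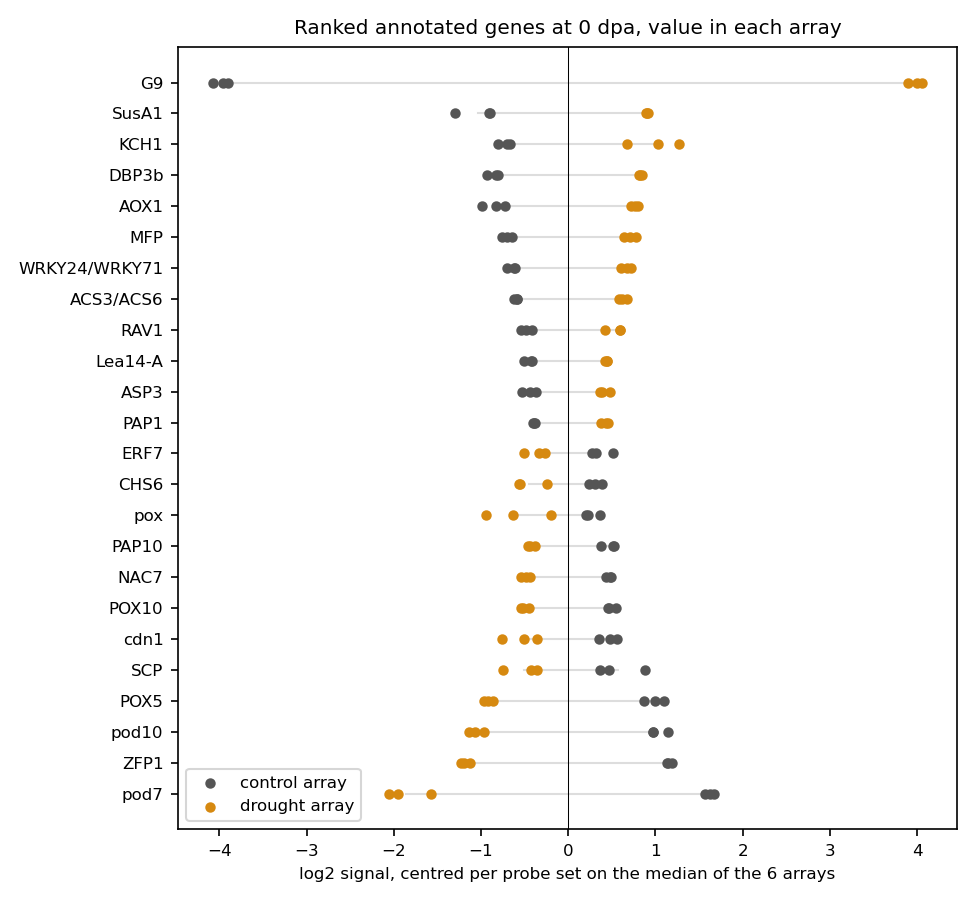
Centred log2 signal (horizontal axis) in the 3 control arrays (grey) and 3 drought arrays (orange) at 0 dpa for the 12 named genes with the largest rises and the 12 with the largest falls among called genes whose groups do not overlap; lines join the group means. G9 spans 7.95, and pod7 and ZFP1 show the largest falls at the bottom.

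LEA proteins protect proteins and membranes in drying tissue. Lea14-A (LOC107922715) stood at −0.43, −0.42 and −0.51 in the control arrays and 0.42, 0.45 and 0.45 in the drought arrays, so the groups were apart and tight. It rose by 0.89 ± 0.07 with an adjusted p of 4.85e-09 in limma. Lea5-D rose by 0.37 ± 0.06, and both kept their calls with the 5′/3′ covariate. On the poly-A scaling Lea14-A stood at 0.67 and was called, and Lea5-D stood at 0.15 and was not. Among the 5 seed maturation and storage genes in the same class MatP7 fell to −0.63 ± 0.12 and lost its call with the covariate, and Mat5-D (−0.18) and the storage genes were not called.

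Of 8 genes for transport of ions, protons and water and for turgor 2 fell and 6 were not called. DET3, of the vacuolar proton pump, fell to −0.48 ± 0.07, and NHX1, of a vacuolar sodium/proton antiporter, to −0.19 ± 0.06, and with the 5′/3′ covariate DET3 kept its call and NHX1 lost it. The aquaporin gene NIP6.1 (−0.26), the potassium transporter gene KT (−0.11), the pyrophosphatase gene VP (0.11), the ATPase subunit genes VATE (−0.06) and cva69.24 (0.10) and the carboxylase gene PEPC1 (0.06) did not pass the test, although another probe set of VATE was called at 0.16.

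Tubulin genes were called in both directions and actin genes only lower. Of 6 tubulin genes 3 rose, 2 fell and 1 was not called, with TubA2 (0.30), BTub3 (0.24) and TUA6/TubA1 (0.22) higher and BTub1/BTub2 (−0.49) and BTub4 (−0.17) lower. BTub3 and BTub4 kept their calls with the 5′/3′ covariate and the other 3 lost them. The 3 rises shrank to between 0.00 and 0.08 on the poly-A scaling and none was called there. TUA10, not called at 0.04, had another probe set called at 0.41. Of 5 actin genes 3 fell, ACT4 (−0.27), ACT11 (−0.27) and ACT7/ACT8/ACT9 (−0.16), and all 3 calls were lost with the covariate.

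Motor and severing proteins of the cytoskeleton included KCH1 (LOC107927185), a kinesin with an actin-binding domain. It stood at −0.67, −0.80 and −0.70 in the control arrays and 1.03, 0.67 and 1.27 in the drought arrays, of which the second was lowest and still above every control array. The rise was 1.72 ± 0.14, 3.29-fold, with an adjusted p of 4e-09 in limma and 1.68 with the 5′/3′ covariate. Its relative kch2 rose by 0.38. The kinesin gene KIS13A1 (−0.24), the katanin gene KTN1 (−0.28), whose product severs microtubules, and CAP, of an actin-binding protein (−0.33), fell. With the covariate KCH1 and KIS13A1 kept their calls and the other 3 lost them.

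Ribosomal protein and elongation factor genes were lower where called: 4 of 7 fell, none rose, and the median was −0.30. Over all 520 genes 183 fell and 111 rose. RL44 (−0.59), EF1A7/EF1A8 (−0.45), RPS4 (−0.45) and RL37a (−0.30) fell, all losing their call with the 5′/3′ covariate, and EF1A1/EF1A4 (0.07), EF1A2 (−0.13) and RPS16 (−0.04) did not pass. Both histone genes fell, HIS3 to −0.72 ± 0.17 and HIS2B to −0.35 ± 0.09, with both calls lost in that fit. S-adenosylmethionine genes fell too, SAMDC of polyamine synthesis to −0.15, which kept its call with the covariate and lost it on the poly-A scaling, and MAT/SAMS to −0.20, which lost it.

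The remaining classes were small. Among 4 defence-type genes GLU, of a glucanase, fell to −0.64 ± 0.06 and kept its call with the 5′/3′ covariate. HrBP1 (0.20) and the germin-like gene Glp1 (0.18) rose, lost their calls with it and turned to −0.02 and −0.04 on the poly-A scaling. The glutamine synthetase gene GS rose by 0.14 and turned to −0.08 in the same way, and it and RCA1, of Rubisco activase, lost their calls with the covariate. Of 3 genes named from fibre cDNA, H6L fell to −0.65 ± 0.10, a call lost with the covariate, and E6 and Fb2 (−0.02) were not called.

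Of the 25 named genes outside the classes 5 rose, 10 fell and 10 were not called. ASP3 (LOC107901245) had control arrays at −0.44, −0.37 and −0.53 and drought arrays at 0.38, 0.37 and 0.48. The groups did not overlap, with 0.85 ± 0.17 and an adjusted p of 0.000343 in limma, but the value turned to −0.13 with the 5′/3′ covariate. GEPH (0.78), Ghfe1 (0.66), AT1 (0.53) and the CASP-like gene GhCASPL2A1 (0.28) also rose, and all but AT1, which turned to −0.01, kept their calls with the covariate. GhCASPL2A1 stood at 0.06 and AT1 at 0.31 on the poly-A scaling, neither of them called. The largest falls were those of TPS1 (−0.56), the adenine nucleotide translocator gene ANT1 (−0.46), the glycosyltransferase gene UGT1 (−0.34) and the transporter gene MFS (−0.25), of which ANT1 lost its call. Another probe set of ANT1 was called at −0.88. ManA2 fell to −0.18 and turned to 0.09 with the covariate. The proteasome gene psmB1 was not called on its chosen probe set but had others called at −0.52 and 0.18.

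Most annotated genes had no informative name: 277 of 520, of which 59 rose and 98 fell. After pod7, the 3 largest falls of all annotated genes were among them. LOC107909128 stood at 1.64, 1.64 and 1.48 in the control arrays and −1.71, −1.48 and −2.21 in the drought arrays. LOC107893293 stood at 1.62, 1.59 and 1.48 and at −1.61, −1.70 and −1.48. The differences were −3.38 ± 0.16 and −3.16 ± 0.07, with no overlap. Among their rises LOC107951546 was the largest, with control arrays at −1.81, −1.92 and −1.49 and drought arrays at 1.49, 1.62 and 1.64, followed by LOC107930564, with −1.20, −1.73 and −1.45 and 1.20, 1.36 and 1.28. Their differences were 3.32 ± 0.12 and 2.74 ± 0.13, again with no overlap. The other probe set of LOC107951546 was also called higher, but at 0.41. The highest adjusted p of these 4 genes in limma was 1.32e-12.

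The drought effect at 0 dpa was compared with that of the later stages, each against its own controls. In the limma contrast of the 0 dpa difference with the mean difference at 5, 10 and 20 dpa, 364 of the 520 genes were called, 224 above and 140 below, beside 53% of all probe sets (30.2% above and 22.7% below). This split too depended on the scaling, with 335 genes above and 58 below on the poly-A spikes, where the contrast rose by 0.48 for every probe set, and 291 above and 80 below on all bacterial spikes. Across the 520 genes, which are not independent replicates and share the arrays of a stage, Pearson's r with the 0 dpa difference was −0.09 at 5 dpa, −0.22 at 10 dpa and 0.30 at 20 dpa, and Spearman's rho was 0.09, −0.10 and 0.37. Over all 23973 probe sets r was 0.14, −0.04 and 0.44, so the sign at 5 dpa depended on the measure and on the features, and the positive value at 20 dpa did not. Drought minus control, the 5′ minus 3′ signal of the cotton control transcripts was 0.66, 0.30, 0.36 and 1.17 at 0, 5, 10 and 20 dpa. The part of this shift in the correlations was not tested. Of the 137 named genes called at 0 dpa, 114 were also called at 5 dpa, 66 in the same direction and 48 in the opposite. At 10 dpa 115 were, 62 in the same and 53 in the opposite direction, and at 20 dpa 107 were, 78 and 29. SCP and HIS3 were the only named genes called at 0 dpa and at none of the later stages. Of all 23973 probe sets, called at 0 dpa or not, only 3971 were called at none of the later stages. Later calls were thus common on the array, and nothing is read from these counts.

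Genes of stress-related regulator families were among the genes below their later mean. ZFP1 fell at 0 dpa and stood at 4.44, 6.97 and 0.94 at 5, 10 and 20 dpa. NAC7 fell as well and stood at 2.70, 4.25 and 0.24 later. NAC4, not called at 0 dpa, reached 4.10, 5.89 and 1.23. By that contrast all 5 DREB and RAV genes, both WRKY genes and 8 of 10 ethylene genes lay below their later mean. So did both named LEA genes and 4 of 7 NAC genes, beside 140 of all 520 genes. On the poly-A scaling 2 of the 5 DREB and RAV genes, both WRKY genes, 5 of the 10 ethylene genes, both LEA genes and 4 of the 7 NAC genes were still called below, and 2 NAC genes were called above. RAV1, for instance, rose by 1.02 at 0 dpa and stood at 4.25, 4.67 and 0.45 later.

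Genes of some wall, cytoskeleton and sterol classes lay on the other side. All 6 tubulin genes, all 4 expansin genes, all 3 sterol methyltransferase genes and 7 of 12 fasciclin-like genes stood above their later mean, beside 224 of all 520 genes. The medians over the later stages were −0.48, −1.35, −0.84 and −0.49. On the poly-A scaling 6, 4, 3 and 9 genes of these classes stood above, beside 335 of the 520. Without that scaling 2 fasciclin-like genes stood below, and other wall and cytoskeleton classes were mixed. Above stood 5 of 8 genes of cellulose and other wall polysaccharides and 3 of 6 pectin genes. So did 3 of 5 actin genes and 3 of 5 genes of kinesins and other cytoskeleton proteins. Of the 3 xyloglucan endotransglucosylase genes none stood above and 1 below. G9, at 7.95 on the day of anthesis, stood at −0.11, 0.01 and −0.26 at 5, 10 and 20 dpa. AOX1 turned from 1.61 to −2.95, −0.10 and −1.59. KCH1 stood at −0.12, −0.06 and −0.37 at the later stages. The 5′ minus 3′ signal of the poly-A spikes also differed between stages, with drought minus control values of 0.47, −0.33, 0.83 and 2.23 at 0, 5, 10 and 20 dpa. Its part in these contrasts was not tested directly. In a fit with it as a covariate 368 genes were called, 227 above and 141 below.

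**Figure D5:**
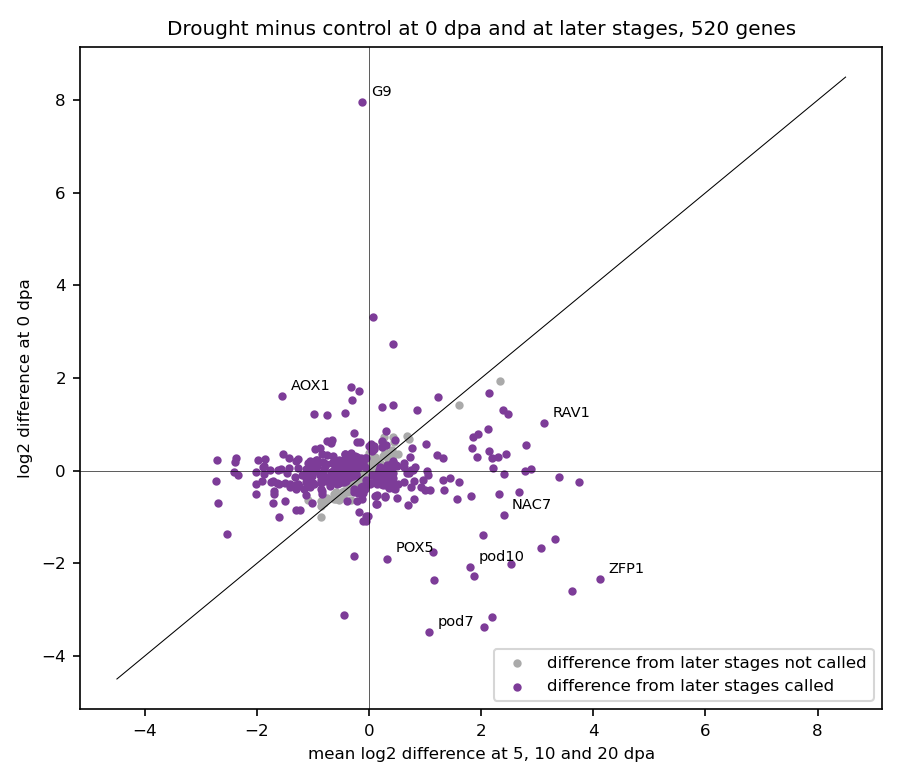
Log2 difference between drought and control at 0 dpa (vertical axis) against the mean of the differences at 5, 10 and 20 dpa (horizontal axis) for the 520 annotated genes; purple points are genes whose 0 dpa difference was called apart from the later mean, grey points genes for which it was not, and the line marks equal values. G9 lies at 7.95 with a later mean of −0.12, and ZFP1 at −2.34 with a later mean of 4.12.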

How the data were processed

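RNA from bolls was labelled and hybridised to Affymetrix cotton arrays, and the 3 drought and 3 control arrays at 0 dpa were compared. RMA made the deposited log2 values, per the submitters' processing notes (version: not given in the sources used here). In the deposited log2 values the median of every probe set over the 6 arrays of a stage was 0 to within 5e-07, a centring that no source used here states. No count depth exists for arrays, so their number limits the precision.

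The 159 control probe sets were left out. limma 3.58.1 in R 4.3.3 fitted the 8 group means to all 24 arrays, with 16 residual degrees of freedom (lmFit, eBayes), and 23973 probe sets were tested two-sided. A second contrast set the 0 dpa difference against the mean of the 3 later stages. Of these probe sets 697 had 1 gene in the platform annotation, 46 had several and 23230 had none. All 697 matched a gene of the RefSeq table of Gossypium_hirsutum_v2.1, 520 genes in all. For each gene 1 probe set was taken by its design, not its values: sense before antisense, then by suffix and ID. Suffixes _s_at or _x_at, open to related transcripts, mark 298 of the genes, and 49 are read by antisense designs. A design was taken as antisense where the ID holds A1 and as sense where it holds S1, which no source used here states. Of 43 genes with 2 or more called probe sets 18 had calls in opposite directions.

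Of the 243 named genes 218 were put by hand into 37 classes from their symbols. Members and lists were chosen with earlier results of these data known. Values in every array are given for the 12 largest rises and 12 largest falls among named, called genes without overlap. The fits were tested on simulated data. Same-numbered replicates did not deviate together at 0 dpa (correlations of −0.08 to 0.01), so the numbers were not taken to pair the samples. Other scalings, covariates, weights, blocks and single arrays left out were tried as alternatives. Scaling on the poly-A or hybridisation spikes alone and the poly-A covariate were added after seeing the data.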

Additional observations from a re-analysis of the deposited data

Results flagged for a closer look

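The drought difference at 0 dpa was set against the mean of the differences at 5, 10 and 20 dpa in limma for the 24 genes whose array values are given, and 20 passed the test, beside 364 of the 520 genes and 53% of all probe sets. These genes were chosen for the size of their 0 dpa difference, which enters the contrast, so nothing is read from the count. Values above the later mean were those of G9 (8.08), AOX1 (3.16), KCH1 (1.90), PAP1 (1.09), POX10 (0.62), ASP3 (0.56) and pox (0.38). Values below it were those of ZFP1 (−6.46), pod7 (−4.56), pod10 (−3.89), NAC7 (−3.36), POX5 (−2.23), RAV1 (−2.11), ERF7 (−1.43), ACS3/ACS6 (−1.24), Lea14-A (−1.23), WRKY24/WRKY71 (−1.07), SCP (−0.98), PAP10 (−0.72) and DBP3b (−0.47). The peroxidase genes divide here: pod7, pod10 and POX5 stood below their later mean, and POX10 and pox stood above theirs. POX5 was not lower than at every later stage, since it stood at −1.90 at 0 dpa and −3.58 at 20 dpa. The highest adjusted p of the 20 was 0.0197, for ASP3.

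The control transcripts, which are not among the genes tested, differed between drought and control arrays in their 5′ minus 3′ signal. The difference was 0.47 for the bacterial poly-A spikes and 0.66 for the cotton control transcripts, without overlap of the groups for either. Among the spikes dap showed 0.66, thr 0.63, phe 0.30 and lys 0.28. The cotton transcripts showed 0.86 for actin, 0.57 for ubq11 and 0.55 for ss1. The part of this shift in the gene results was not tested directly. The 2 covariate fits cannot measure it, because the groups did not overlap in this signal. Their slopes rest on the spread within groups.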

How the results depend on the processing

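The counts of calls, 10606 probe sets and 294 genes at 0 dpa and 364 genes that differ from the later stages, were computed again in each alternative, and some moved by over 1.5 times. With the 5′ minus 3′ signal of the cotton control transcripts as a covariate 3686 probe sets and 131 genes were called, with a median SE of 0.165. Scaled on the hybridisation spikes, whose means ran from −0.14 to 0.15 in the drought arrays, 4246 probe sets, 123 genes and 237 genes were called. Scaled on the poly-A spikes 6578 probe sets were called, 22.1% of them higher in place of 48.3%. Among genes the share of higher calls was 37.8%, and 17.1% and 23% when scaled on the poly-A spikes and on all bacterial spikes. It was 42.3% on the 3′ poly-A spikes and 40.7% on the hybridisation spikes. Without the suffixes s, x and a 5216 of 12694 probe sets were called (41.1%), since fewer were tested, and against a change of 1.5-fold 940 were. The other settings left the counts within 1.5 times. On all bacterial spikes 7402 probe sets were called, 32% of them higher. The replicate block gave 10058 probe sets, 278 genes and 350 genes, and 11 named genes lost their call. Without 1 array at a time the counts ran from 9088 to 9867, from 259 to 271 and from 338 to 349. In these, 29 named genes lost their call at least once, 13 to 20 per array; SEPALLATA3 and SMT2-2 lost it whichever of the 6 arrays was left out, and pod5, RCA1, XTH1, WRKY15, KASII, CRK1, bHLH110D and EXPA13D in 5 of the 6 cases, and the other 19 were ACT7, ARF1, BTub4, CLP, CTL1, ERF9, GAI2, GHMYB10, MYB5, ManA2, NHX1, PTAC, RHM3, Ssh2, Sus1, cys1, kch2, myb109 and sAPX. The 6 arrays alone, median centring, array weights, a robust prior, 3′ poly-A scaling and the poly-A covariate belong here too. On the 3′ poly-A spikes 338 genes lay above and 86 below in the contrast with the later stages.

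Values of called genes turned sign as follows, and in no case did a value turned by the cotton covariate pass the test. With that covariate they were ASP3 (−0.13), AT1 (−0.011), ManA2 (0.090), RAV1 (−0.20), SEPALLATA3 (−0.21), bHLH110D (0.029), sAPX (−0.14), BC1 (−0.22), GRPL1 (−0.077), GAI2 (0.032), ACX (−0.11), SMT2-2 (−0.38), SusA1 (−0.18) and XTH1 (−0.28). Scaled on the poly-A spikes they were ARF1 (−0.072), HrBP1 (−0.022), Glp1 (−0.042), KASII (−0.11), GS (−0.080) and SMT1 (−0.061), and on all bacterial spikes KASII (−0.019). With the mean of all sense probe sets of a gene they were EXPA13D (−0.14), FatB1 (−0.10), MPK3 (0.14) and KCS38 (0.18). The cause of each change was not tested. The planned description of promoter motifs was not run, since promoter sequence was not used here.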

Other observations

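Most probe sets have no gene in the annotation, and some of them differed by more than any annotated gene. Of 23 probe sets called at least 16-fold higher in drought, 1 had a gene, which was G9, a share of 4.35% beside 2.91% of all probe sets tested. The highest had control arrays at −4.23, −4.21 and −4.40 and drought arrays at 4.26, 4.22 and 4.21, a difference of 8.51 ± 0.10. The next stood at −4.51, −3.93 and −4.52 and at 3.93, 3.99 and 3.94. Neither had overlapping groups. Of the 23, 13 had IDs that start with Gra, the prefix of Gossypium raimondii sequences on this array, a share of 56.5% beside 29.5% of all probe sets tested. At 5, 10 and 20 dpa 15 of the 23 differed by less than 2-fold between drought and control, 65.2% beside 70.9% of all probe sets. The medians of the 23 were −0.07, −0.09 and −0.16, beside −0.05, −0.02 and −0.07 over all probe sets. These probe sets were chosen for their size at 0 dpa, so this is a description of that stage and of the later ones.

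Of the 5 probe sets called at least 16-fold lower none had a gene and none had an ID that starts with Gra, and their medians later were 0.59, 4.23 and −2.80 at 5, 10 and 20 dpa. The lowest of them stood at 2.29, 2.28 and 2.30 in the control arrays and −2.38, −2.28 and −2.47 in the drought arrays. The next stood at 2.04, 2.05 and 2.0 and at −2.10, −2.0 and −2.55, again without overlap. Among the 65 probe sets at least 4-fold lower the medians were 0.10, 1.57 and −1.64, with 10 tied to a gene (15.4%). Among the 108 at least 4-fold higher they were 0.03, 0.03 and 0.10, with 3 tied to a gene.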
